A study of Mus musculus with 24 samples.

Results

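Ribosomal protein genes carry 337 of the 65535 MspI fragments in the table, under 27 of its 3860 gene names. They were taken by name, as the fragments whose assigned gene starts with Rpl, Rps, Mrpl or Mrps followed by a digit, with the Rps6k kinases left out. The 27 names comprise 10 cytosolic ribosomal protein genes with 178 fragments, 14 mitochondrial ones with 146 fragments, and 3 processed pseudogenes with 13 fragments. The cytosolic names are Rpl7, Rpl7a, Rpl12, Rpl22l1, Rpl31, Rpl34, Rpl35 and Rpl37a of the large subunit and Rps3a and Rps27 of the small subunit. The mitochondrial names are Mrpl9, Mrpl15, Mrpl24, Mrpl30, Mrpl41, Mrpl44 and Mrpl47 of the large subunit and Mrps2, Mrps5, Mrps9, Mrps14, Mrps21, Mrps26 and Mrps28 of the small subunit. The pseudogenes are Rpl12-ps1, Rpl23a-ps1 and Rps10-ps1.

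Reduced representation bisulfite sequencing (RRBS) cuts DNA with MspI at CCGG and reads out, at the CpG sites of short fragments, which cytosines resisted bisulfite conversion (methylated calls) and which were converted (unmethylated calls). The methylation level of a fragment was the percentage of its CpG calls that were methylated, with a minimum of 10 calls per library. Brown adipose tissue (BAT), the heat-producing fat depot, came from female C57BL/6J mice at PND 12. Their dams had received both o,p'-DDT and its isomer p,p'-DDT in olive oil, or olive oil alone (VEH), by gavage from mid-gestation into the first postnatal days, and each library was a pool of littermates, so that the litter was the replicate. There were 12 VEH and 12 DDT libraries. The VEH and DDT mice shared strain, sex, age and the oil. BAT is a mixture of cell types, and a level here is an average over all of them.

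Cytosolic ribosomes translate nuclear messages and are built from proteins that every growing cell makes in large amounts. Mitochondrial ribosomes translate the few messages of the mitochondrial genome, which encode subunits of the respiratory chain, and brown adipocytes are rich in mitochondria. The proteins of both kinds are encoded in the nucleus, mostly by genes whose start lies in a CpG island, a stretch rich in CpG that is usually free of methylation. The contrast of the 2 classes asks whether their genes differ in methylation, and the contrast of DDT with VEH asks whether exposure went with a different level at either.

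The sequences of 12 fragments show what was measured. They were read from GRCm38 in RefSeq, on the plus strand, with each CpG in capitals, and each begins right after the first C of an MspI site. The first 4 are gene start fragments, a pair of cytosolic and a pair of mitochondrial genes with many VEH calls, where the level was low in VEH: Rpl22l1 at chr3:28805673-28805721 (2.44%), Rpl7 at chr1:16105252-16105285 (7.33%), Mrps2 at chr2:28468002-28468055 (2.05%) and Mrps26 at chr2:130564208-130564239 (3.94%). CpG sites are crowded in all of them.
Rpl22l1: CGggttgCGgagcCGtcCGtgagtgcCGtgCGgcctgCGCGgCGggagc
Rpl7: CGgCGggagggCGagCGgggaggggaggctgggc
Mrps2: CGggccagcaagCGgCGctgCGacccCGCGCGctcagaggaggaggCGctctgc
Mrps26: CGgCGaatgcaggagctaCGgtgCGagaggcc

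The next 6 sequences are fragments at an unadjusted p under 0.05 in DDT against VEH: Rpl12-ps1 at chr1:36984541-36984608, Rpl31 at chr1:39368426-39368521, Rpl7 at chr1:16106122-16106188, at chr1:16105072-16105130 and at chr1:16105131-16105251, and Rpl35 at chr2:39008368-39008409. The last of the Rpl7 fragments abuts the Rpl7 start fragment above. The Rpl12-ps1 fragment has only 2 CpG sites and the longest Rpl7 fragment has 18.
Rpl12-ps1: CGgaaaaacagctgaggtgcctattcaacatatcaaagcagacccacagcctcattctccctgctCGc
Rpl31: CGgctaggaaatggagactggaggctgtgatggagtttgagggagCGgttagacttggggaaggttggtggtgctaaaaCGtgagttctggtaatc
Rpl7, farthest from the gene: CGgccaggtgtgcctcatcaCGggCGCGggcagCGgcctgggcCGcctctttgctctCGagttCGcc
Rpl7, nearest to the gene: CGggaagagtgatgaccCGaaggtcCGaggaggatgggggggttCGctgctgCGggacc
Rpl7, between them: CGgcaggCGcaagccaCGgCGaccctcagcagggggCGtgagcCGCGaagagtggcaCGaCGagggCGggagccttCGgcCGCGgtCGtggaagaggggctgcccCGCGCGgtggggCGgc
Rpl35: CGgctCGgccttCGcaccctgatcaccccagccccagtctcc

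The last pair, chosen after its values were seen, lies side by side in an intron of Mrps28 at chr3:8897913-8897949 and chr3:8897950-8898149. The VEH level was 95.0% in the first and 13.4% in the second.
Mrps28, left: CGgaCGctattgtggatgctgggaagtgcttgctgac
Mrps28, right: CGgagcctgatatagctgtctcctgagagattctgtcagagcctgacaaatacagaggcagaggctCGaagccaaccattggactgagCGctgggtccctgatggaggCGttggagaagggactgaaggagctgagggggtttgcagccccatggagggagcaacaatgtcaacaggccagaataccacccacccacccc

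Libraries held 8371958 to 14124652 CpG calls over the table and 41010 to 93317 over the ribosomal protein gene fragments. Testing required a level in 8 or more libraries per group, and 137 of the 337 fragments passed, 79 cytosolic, 54 mitochondrial and 4 of pseudogenes. Rps27, Mrpl24 and Rpl23a-ps1 had no tested fragment. DDT replicate 4 stood apart. It had a level at 89 of the 137 fragments against 109 to 137 in the other libraries, and 57.3% of those levels were exactly 0% or 100%, against 3.97% to 11.7% elsewhere. Of its 60 fragments with at least 100 calls, 36 were at 0% or 100%, while no other library had more than 6. Its levels had an SD of 21.4 percentage points around the median of each fragment, against 2.88 to 7.23 in the others. Where a difference between DDT and VEH discussed in the text changed sign or crossed p = 0.05 without this library, its value without it is given. Calls of DDT replicate 12 were uneven. It had 3261 calls at the Rpl12 start fragment of 87 bp, where no other library had more than 939. At the left Mrps28 fragment of 37 bp it had 39, against 299 to 1235 elsewhere. Start levels of marker genes could not check the label of the tissue, since most start fragments of the table were low (median 4.13%, 80.4% under 10%). Start fragments of 3 of 4 adipocyte genes (Fabp4, Fabp5 and Lpgat1) had VEH levels of 1.25% to 13.3%. Those of the muscle genes Myog and Ttn had 13.7% to 78.4%, and those of the endothelial gene S1pr1 had 1.84% to 21.2%. None of the 5 listed genes of white blood cells had a tested start fragment. A methylation level does not measure expression.

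**Figure D1:**
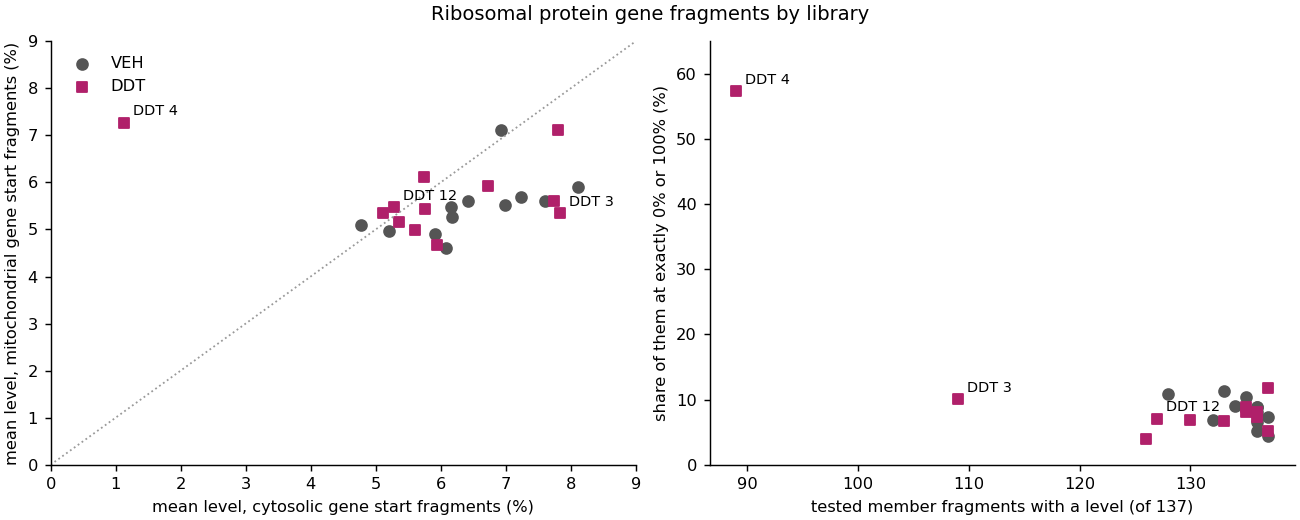
Each point is a library, VEH as circles and DDT as squares. Left, the mean level of the 21 cytosolic against that of the 17 mitochondrial gene start fragments that had a level in all 24 libraries, in percent, with a dotted line of equality. Right, the share of levels at exactly 0% or 100% against the number of tested fragments with a level. DDT replicate 4 lies alone in both, with 57.3% of its levels at 0% or 100%.

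Gene starts of both classes were low in methylation. Within 1000 bp of the gene start, the VEH level had a median of 4.86% over 35 cytosolic fragments of 8 genes, with a range of 0.617% to 19.3%, and of 4.73% over 27 mitochondrial fragments of 10 genes, with a range of 1.23% to 12.6%. Over all 7367 tested gene start fragments the median was 4.13%. In each class most of these fragments were under 10%, 30 of the 35 cytosolic and 24 of the 27 mitochondrial ones, or 85.7% and 88.9%, against 80.4% of all gene start fragments. The authors placed 30 of the 35 and all 27 in a CpG island or on its edge, and the 5 others were 4 fragments of Rpl12 and 1 of Rpl31. Every tested start fragment of both classes was under 20%, as were 7010 of the 7367 in the table.

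Among the cytosolic genes, the fragments of 1 gene start spanned a wider range than the medians of the classes did. Rpl31, a large subunit protein near the exit of the nascent chain, was covered by 10 start fragments, and their VEH levels ran from 2.29% at 422 bp into the gene to 17.9% at 937 bp, in a fragment with 1 CpG on the shore of its island. Rpl37a, a small zinc-binding protein of the large subunit, held the highest cytosolic start fragment, at chr1:72711314-72711381 over coding sequence and UTR, with 19.3% ± 11.7 (SD, n = 12) and libraries from 4.0% to 39.7%. The fragment abutting it, which spans the start itself, had 2.26% ± 2.24 (SD, n = 12). The ranges of these neighbors overlapped, since the highest level of the second was 8.48%. In Rps3a, a small subunit protein near the messenger RNA exit and the only small subunit gene of the cytosolic class with tested fragments, 13.7% ± 6.60 at 28 bp from the start stood beside 2.87% ± 0.639 at 73 bp (SD, n = 12 each). The lowest cytosolic start fragment was that of Rpl22l1, a paralog of Rpl22, at 106 bp with 0.617% ± 1.85 (SD, n = 9), and 8 of its 9 VEH libraries were at 0%. Rpl7, Rpl7a, Rpl12 and Rpl34 had start fragments between 0.801% and 13.8%.

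Among the mitochondrial genes the highest start fragments were those of Mrps28, at 150 bp in coding sequence with 12.6% ± 3.89, of Mrpl41, at 281 bp with 12.4% ± 3.81, and of Mrps26, at 71 bp with 12.4% ± 2.95 (SD, n = 12 each). The lowest of the small subunit was also in Mrps28, in an intron at 413 bp, with 1.23% ± 2.19 (SD, n = 11). The lowest of the large subunit was the single start fragment of Mrpl30, with 1.54% ± 0.492 (SD, n = 12). Mrps2 was covered by 7 start fragments, all between 2.05% and 7.41%. Mrps26 was tiled by 5 fragments, and its fragment across the start had the widest spread of any tested mitochondrial start fragment, 9.41% ± 13 (SD, n = 12), with a median of 3.36% and libraries from 0% to 35%, while the next fragment had 1.93% ± 0.544 (SD, n = 12). The rest, in Mrpl9, Mrpl44, Mrpl47, Mrps9 and Mrps14, lay between 3.31% and 9.28%.

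**Figure D2:**
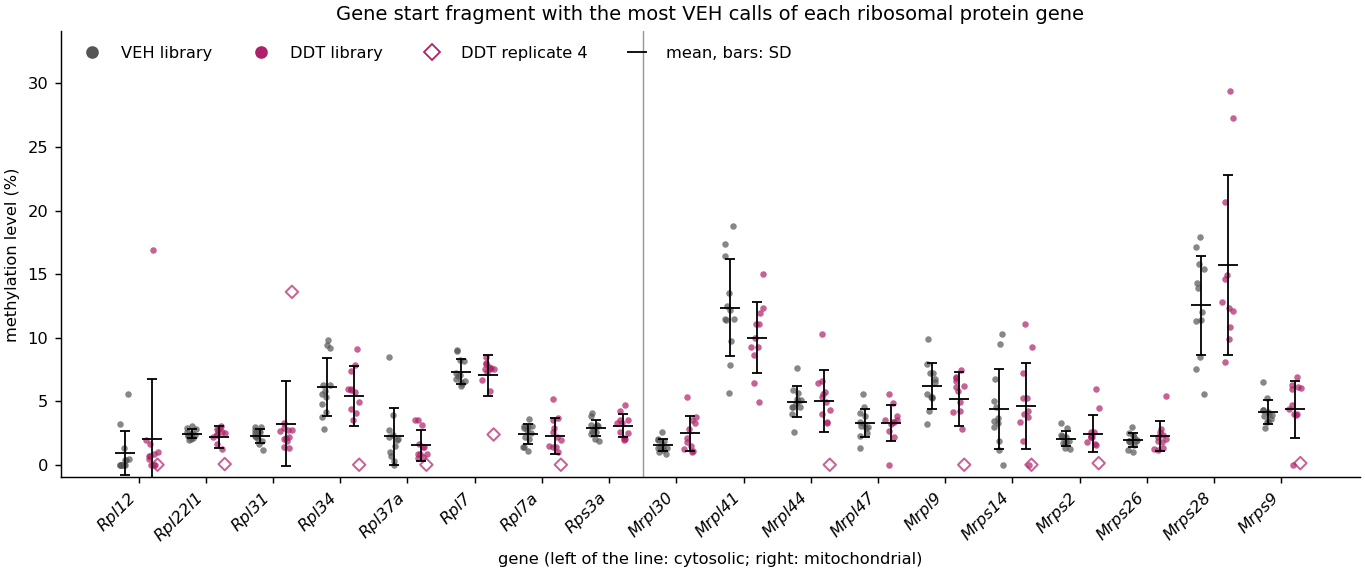
Methylation level in percent of the gene start fragment with the most VEH calls for each gene that has one, 8 cytosolic genes left of the line and 10 mitochondrial genes right of it. Points are libraries (VEH gray, DDT magenta, DDT replicate 4 as an open diamond), and black bars give the mean and SD. VEH means run from 0.943% (Rpl12) to 12.6% (Mrps28), and the ranges of the groups overlap at every gene.

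Where the start fragments had a level in all 24 libraries, their mean in VEH was 6.47% ± 0.962 over 21 cytosolic and 5.48% ± 0.638 over 17 mitochondrial fragments (SD, n = 12). In DDT the means were 5.84% ± 1.80 and 5.70% ± 0.793 (SD, n = 12), and without replicate 4 they were 6.27% ± 1.07 and 5.56% ± 0.652 (SD, n = 11). DDT replicate 4 was at 1.13% in the cytosolic and at 7.27% in the mitochondrial set, the lowest and the highest DDT value. In VEH the mitochondrial mean minus the cytosolic mean of a library was -0.987 percentage points ± 0.801 (SD, n = 12), with a range of -2.20 to 0.320. In DDT it was -0.133 ± 2.17 (SD, n = 12), with a range of -2.50 to 6.14, where the highest was replicate 4. Without that library it was -0.704 ± 0.941 (SD, n = 11), with a range of -2.50 to 0.360.

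Several start fragments lay at the start of a neighboring gene as well. Of the tested start fragments, 14 of 35 cytosolic ones in 3 genes and 8 of 27 mitochondrial ones in 4 genes also lay within 1000 bp of the start of another protein-coding gene. The pairs were Rpl7 with Rdh10, a retinol dehydrogenase, Rpl7a with Med22 of the Mediator complex, Rpl12 with Lrsam1, Mrpl9 with Oaz3, Mrpl30 with Mitd1, Mrpl44 with Wdfy1 and Mrpl47 with Ndufb5, a subunit of respiratory complex I. The authors' table assigns every fragment to 1 gene, so fragments that carry a ribosomal protein gene's name may lie far from it, up to 282587 bp in the case of Rps3a.

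Away from gene starts the levels were spread over the whole scale. Of the 63 tested fragments upstream of cytosolic and mitochondrial genes by more than 1000 bp, 39 lay inside another protein-coding gene. There were 41 under 20%, and 29 of these lay within 1000 bp of the start of another protein-coding gene. All 29 fragments at such starts were between 0.201% and 17.5%, while the 34 others had a median of 68.0%. The low ones were 8 fragments named for Rps3a at Lrba, 7 named for Rpl7a at Surf6, a nucleolar protein gene, 5 named for Rpl7 at Rdh10, 5 named for Mrpl47 at Usp13, and 4 named for Mrpl15 at Lypla1 and Gm37988. The table gives no island relation for 24 of the 29. A further set of 7 fragments named for Rpl35, inside Arpc5l and 2230 to 2744 bp from the Rpl35 start, had levels of 0.725% to 14.9%.

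Away from every protein-coding start, 24 cytosolic fragments had a VEH median of 61.5% and 18 mitochondrial fragments a median of 73.3%, against 64.0% over 11075 such fragments in the table. The range was 0.725% to 98.0% and 5.43% to 98.2%. Inside genes the 8 tested fragments were all mitochondrial small subunit genes: 3 of Mrps5, at 96.3%, 96.2% and 50.6%, 3 of Mrps28, at 95.0%, 78.6% and 13.4%, and 1 each of Mrps21 (62.1%) and Mrps9 (44.4%). No tested fragment lay inside a cytosolic gene beyond its first 1000 bp.

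**Figure D3:**
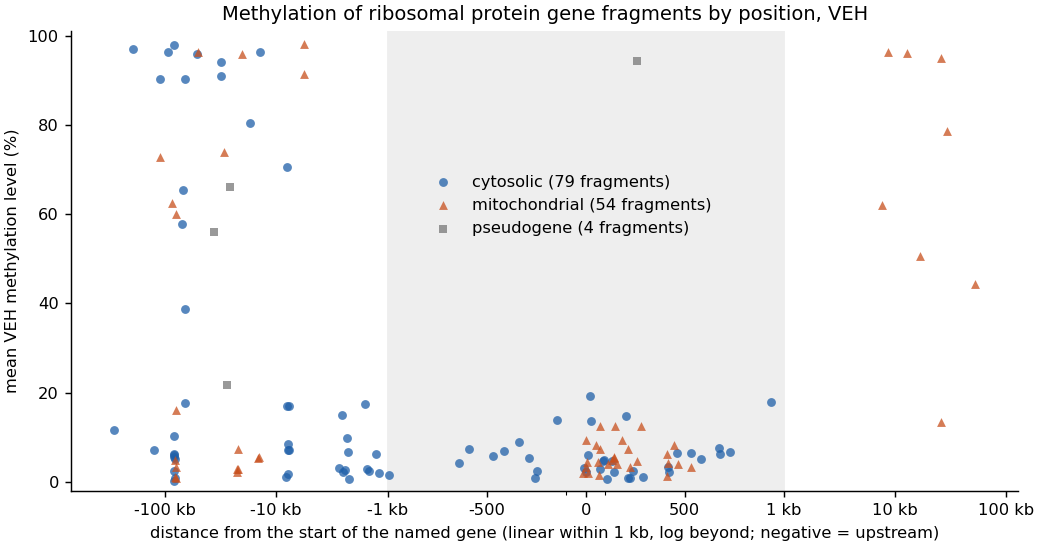
Mean VEH level in percent of the 137 tested fragments against the distance from the start of the named gene, linear within 1 kb (gray) and logarithmic beyond, negative upstream. All cytosolic and mitochondrial fragments within 1 kb are under 20%, and fragments farther out run from 0.201% to 98.2%.

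Many intermediate levels stood in short fragments. Reads were 50 bp long, and a read that starts at the cut end of a shorter fragment runs through its other end. The ends of MspI fragments are filled in with unmethylated cytosines during library preparation, so that such a read can carry an unmethylated call from the library preparation. Over the table, fragments with 1 CpG and no fragment abutting on the left had a median VEH level of 36.1% at 30 to 40 bp (1001 fragments) and 43.3% at 41 to 50 bp (442 fragments), but 94.3% at 51 to 60 bp (232 fragments). Levels to the right of a short fragment differed in the same way. Where the left neighbor was above 80%, fragments longer than 50 bp had a median of 20.6% beside a neighbor of 30 to 40 bp and of 96.1% beside one of 51 to 60 bp, and in the first case they had 1.01 times as many calls as their neighbor had per CpG.

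The pair in the Mrps28 intron is such a case. The left fragment of 37 bp had 95.0% ± 0.704 and the right one of 200 bp had 13.4% ± 2.74 (SD, n = 12), and no VEH library had more than 18.0% in the right or less than 93.7% in the left. In every one of the 24 libraries the calls of the right fragment were 1.01 to 1.03 times the calls per CpG of the left, although the right fragment has 4 CpG sites. Other members of this kind were the Mrps5 fragment of 39 bp in its UTR with 50.6% ± 3.47 and the Mrps9 fragment of 35 bp at the end of its coding sequence with 44.4% ± 5.64 (SD, n = 12 each). Of the 18 mitochondrial fragments away from starts, 12 were 50 bp or shorter or had such a fragment abutting on their left, and they included 7 of the 8 fragments between 20% and 80%. Of the 24 cytosolic fragments 11 were of this kind, with 1 of the 4 between 20% and 80%. Over longer fragments alone the medians were 70.6% (13 cytosolic) and 76.7% (6 mitochondrial), against 84.9% over 5206 such fragments in the table. What part the read length had in single levels was not tested.

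**Figure D4:**
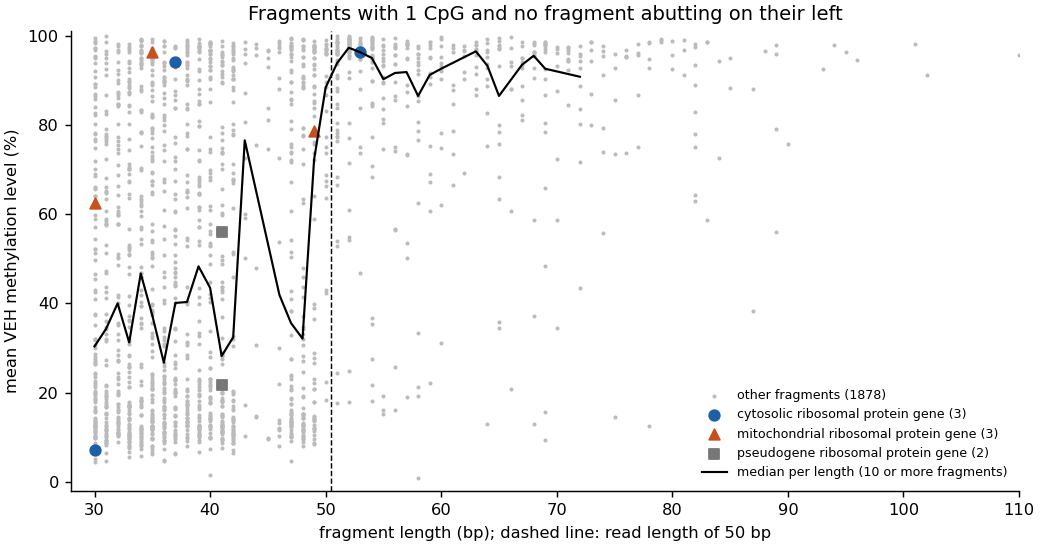
Mean VEH level in percent of fragments with 1 CpG and no abutting fragment on their left, against fragment length in bp. Gray points are other genes, colored symbols ribosomal protein genes, and the line is the median per length. The median steps up near the read length of 50 bp, from 43.3% at 41 to 50 bp to 94.3% at 51 to 60 bp.

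No tested ribosomal protein gene fragment differed between DDT and VEH after adjustment. The fragments lay on chromosomes 1 and 2 and part of chromosome 3. Rpl28, for which the paper reports differential methylation in DDT-exposed infants, is not among the names covered here. The F test with Benjamini-Hochberg adjustment ran over 20225 fragments of the table, of which 0% were called, and no adjusted p was lower than 0.869. An unadjusted p under 0.05 was found for 11 of 137 fragments, in 8 genes (8.03%), against 4.18% of all tested fragments. They comprised 8 of 79 cytosolic fragments (10.1%), 2 of 54 mitochondrial ones (3.70%) and 1 of 4 of pseudogenes. The level was higher in DDT in 6 of the 11 and lower in 5, where the shares over the table were 1.25% higher and 2.93% lower. Without DDT replicate 4 the count was 8 of 135, with 6 higher and 2 lower, of which 5 of 77 were cytosolic and 2 of 54 mitochondrial, against 4.24% of the table. Of the cytosolic ones 2 were then lower in DDT, in place of 5. Whether the classes differ was not tested. By subunit the count was 7 of 66 for Rpl, 1 of 13 for Rps, 2 of 25 for Mrpl and 0 of 29 for Mrps, where the smallest p was that of an intron fragment of Mrps21.

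The median difference, DDT minus VEH, was -0.143 percentage points over the cytosolic and 0.0165 over the mitochondrial fragments, beside -0.163 over the table. It was under 1 percentage point in size at 76 of the 137 fragments and over 5 at 9.

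Of the 16 tested fragments named for Rpl7, a large subunit protein, 3 had an unadjusted p under 0.05, all lower in DDT and all in CpG islands between Rpl7 and the first part of Rdh10. At 410 bp upstream the level was 6.81% ± 1.08 in VEH, with libraries from 5.14% to 8.04% and a median of 7.22%, and 5.23% ± 2.16 in DDT, from 1.52% to 8.44% with a median of 4.77% (SD, n = 12 each). The difference was -1.58 percentage points, with 9 of 12 DDT libraries under the VEH median (p = 0.0347, permutation test), and -1.24 without DDT replicate 4 (p = 0.0669, permutation test). At 469 bp upstream it was 5.78% ± 5.29 in VEH (n = 10) and 1.26% ± 1.75 in DDT (n = 8), with 7 of 8 DDT libraries under the VEH median (p = 0.0146, exact permutation test). Levels in this fragment rested on 16 to 326 calls, the most in DDT replicate 12. At 1460 bp upstream, inside Rdh10, it was 2.35% ± 1.53 in VEH (n = 12) and 1.19% ± 0.670 in DDT (n = 11), and 10 of 11 DDT libraries lay under the VEH median of 2.14% (p = 0.0261, permutation test). The fragment between the first pair and the distal one, the Rpl7 start fragment with the most calls, had 7.33% ± 1.02 in VEH and 7.03% ± 1.61 in DDT (SD, n = 12 each), with 9 of 12 DDT libraries above the VEH median. Its difference of -0.297 percentage points became 0.126 without DDT replicate 4. The groups overlapped in all of these fragments.

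Rpl31 had 2 fragments at an unadjusted p under 0.05, in opposite directions. In its intron at 584 bp the level was 5.20% ± 4.42 in VEH, from 0% to 12.5% with a median of 4.55%, and 10.7% ± 6.04 in DDT, from 0% to 25% with a median of 10.6% (SD, n = 11 each). It was above the VEH median in 10 of 11 DDT libraries (difference 5.51 percentage points, p = 0.0192, permutation test), and the DDT library at 0% was replicate 4, without which the difference was 6.59 (p = 0.00324, permutation test). Levels in this fragment rested on 10 to 813 calls, the most in DDT replicate 12, with a VEH median of 35.5 calls. The 0% of replicate 4 and the highest DDT level each rested on 12 calls. At 86 bp, in the UTR, the level was 4.61% ± 0.748 in VEH and 3.61% ± 1.39 in DDT (SD, n = 12 each), lower in 10 of 12 DDT libraries (p = 0.0276, permutation test). There DDT replicate 4 was at 0% of 15 calls, which allows a level of up to 20% if the calls were independent. Without that library the difference was -0.675 (p = 0.0547, permutation test).

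The other cytosolic fragments lay farther from their genes, inside other genes. The Rps3a fragment of 33 bp with 1 CpG, 282587 bp upstream inside Lrba, had 11.5% ± 5.55 in VEH (n = 12) and 17.2% ± 6.82 in DDT (n = 10), higher than the VEH median in 9 of 10 DDT libraries (p = 0.0427, permutation test). The Rpl37a fragment of 37 bp, 31199 bp upstream inside Ankar, had 94.2% ± 1.89 in VEH and 96.0% ± 2.29 in DDT (SD, n = 12 each), a difference of 1.80 percentage points (p = 0.0462, permutation test) and of 1.44 without DDT replicate 4 (p = 0.0907, permutation test). The Rpl35 fragment of 42 bp, inside Arpc5l, had 3.03% ± 0.798 in VEH and 2.17% ± 1.13 in DDT (SD, n = 12 each), a difference of -0.860 (p = 0.0417, permutation test) and of -0.671 without replicate 4 (p = 0.0806, permutation test).

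Both mitochondrial fragments were higher in DDT. Mrpl30, at 69 bp in the UTR, had 1.54% ± 0.492 in VEH, from 0.875% to 2.61%, and 2.49% ± 1.37 in DDT, from 1.01% to 5.32% (n = 12 and 11), and 8 of 11 DDT libraries were above the VEH median of 1.37% (p = 0.0325, permutation test). The groups overlapped. The Mrpl41 fragment 5573 bp upstream, inside Pnpla7, a lysophospholipase gene, had 91.4% ± 2.21 in VEH and 93.1% ± 1.23 in DDT (n = 12 and 11), above the VEH median in 10 of 11 DDT libraries (p = 0.0387, permutation test). DDT replicate 4 had no level in either. The Mrpl30 fragment is 37 bp long, and its highest DDT level was that of replicate 12. Without replicate 12 its difference fell from 0.948 to 0.666 percentage points. For Mrpl30 and Mrpl41, p was 0.0581 and 0.0652 with limma, and 0.0394 and 0.0109 with quasi-binomial regression.

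The fragment with the smallest F test p among all 137 was named for the pseudogene Rpl12-ps1, 26114 bp upstream of it and outside any protein-coding gene. It had 66.0% ± 6.86 in VEH, from 50% to 73.7%, and 75.5% ± 11.3 in DDT, from 58.3% to 100% (n = 12 and 11). The difference was 9.50 percentage points (p = 0.0206, permutation test), with 8 of 11 DDT libraries above the VEH median. The library at 100% was DDT replicate 4, with 416 of 416 calls methylated (95% exact interval 99.1% to 100%), and the others lay between 58.3% and 83.3%. Without it the difference was 7.06 (p = 0.0403, permutation test).

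**Figure D5:**
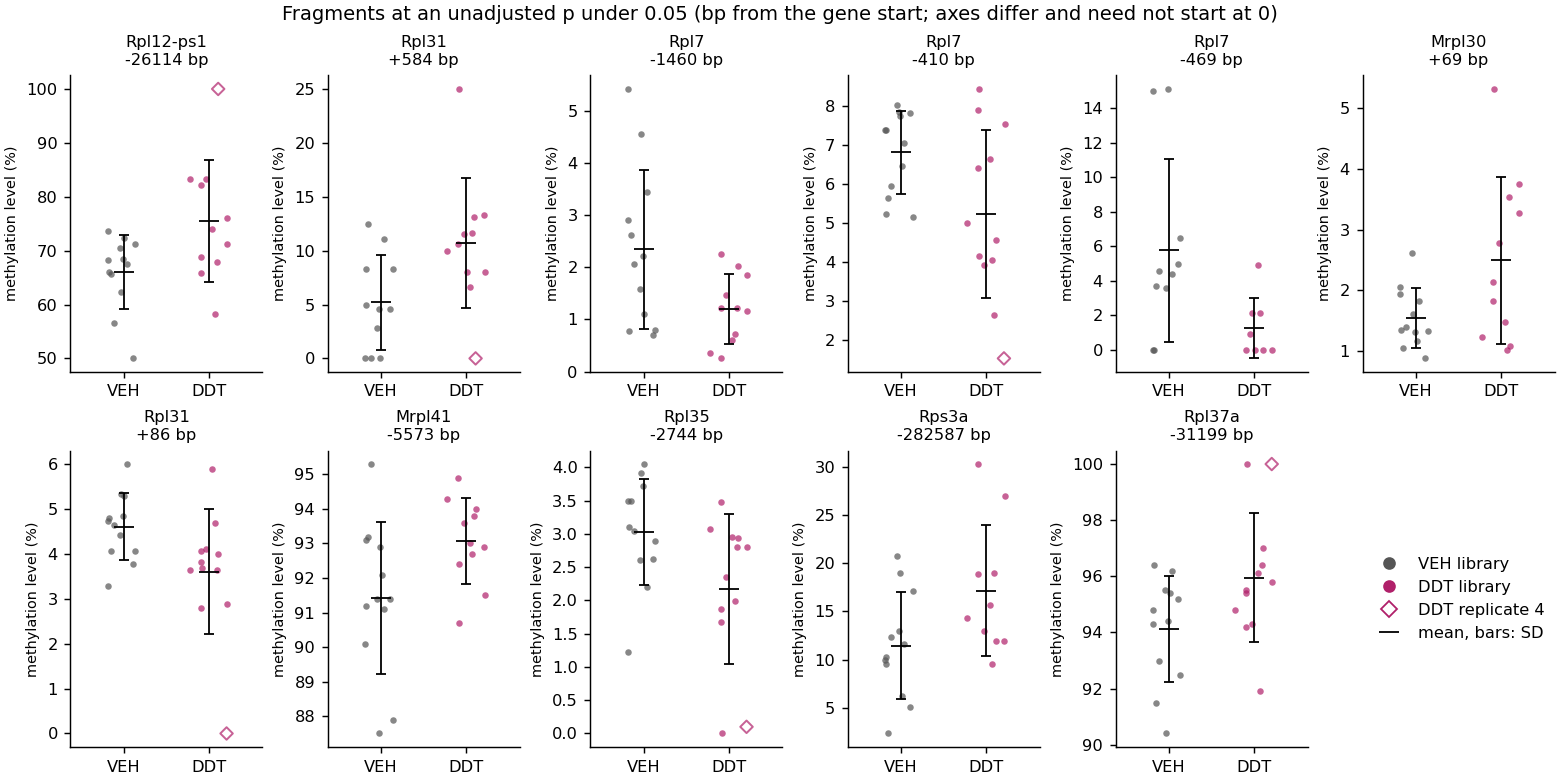
Methylation level in percent by library for the 11 fragments at an unadjusted p under 0.05, VEH left and DDT right in each panel, with the mean and SD and DDT replicate 4 as an open diamond. Panels are ordered by p, and axes differ and need not start at 0. The groups overlap in each panel.

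Several larger differences shrank or changed sign without DDT replicate 4. The largest was at Rpl7, 994 bp upstream, where DDT exceeded VEH by 13.1 percentage points (p = 0.248, exact permutation test). VEH was at 1.53% ± 2.08 (n = 10) and DDT at 14.7% ± 34.7 (n = 8), and DDT replicate 4 was at 100% of 23 calls (95% exact interval 85.2% to 100%) while the other DDT libraries reached 10%. Without it the difference was 0.949. At Mrps2, 216 bp into the gene, the same library had 89.5% of 114 calls methylated (95% exact interval 82.3% to 94.4%), where the other 11 DDT libraries had 4.65% to 10.7% and VEH had 7.41% ± 1.26 (SD, n = 12). The difference of 6.44 percentage points became -0.433 without it. At the Lrba start, a fragment named for Rps3a had 97.0% of 337 calls methylated in DDT replicate 4 (95% exact interval 94.6% to 98.6%) against 5.13% to 29.2% in the others, and the difference of 7.06 became -0.182. A second fragment there had 57.0% of 407 calls (95% exact interval 52.0% to 61.9%) against 0.901% to 9.09%, and the difference of 4.93 became 0.664. At Rpl31, 422 bp into the gene, it had 13.6% of 242 calls (95% exact interval 9.58% to 18.6%) against 1.28% to 3.30%, and the difference of 0.942 became -0.00425. In the Mrps28 pair this library had 906 of 906 calls methylated on the left and 0 of 462 on the right, which allows a level of up to 0.649%. Intervals and limits cover counting error only and treat every CpG call as independent. Calls on the same read are linked, and reads without molecular identifiers are not independent molecules, so the intervals can be too narrow. The Rpl7 fragment at 994 bp holds 23 CpG sites, so its 23 calls can come from few reads.

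The third largest difference was that of the Mrps21 intron fragment, which also had the smallest p of the Mrps class. It had 62.1% ± 11.3 in VEH, from 40% to 78.2%, and 54.4% ± 13.8 in DDT, from 25% to 71.2% (n = 12 and 11), with 9 of 11 DDT libraries under the VEH median (difference -7.68 percentage points, p = 0.161, permutation test). Without DDT replicate 4 it was -4.74 (p = 0.318, permutation test). The widest VEH spread was at a fragment of 41 bp with 1 CpG named for Rpl12-ps1, with 56.0% ± 13.8 (SD, n = 12), followed by the Mrps26 and Rpl37a start fragments with an SD of 13 and 11.7.

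Pseudogene copies were measured at a few places only. Processed pseudogenes are copies of messenger RNA in the genome, and reads of near-identical copies cannot always be placed. Rps10-ps1 had 94.3% ± 5.10 in VEH (n = 11) and 93.2% ± 4.50 in DDT (n = 8) in a fragment of 43 bp within its body that holds 7 CpG sites. Of the 56 ribosomal protein pseudogenes annotated on these chromosomes, 4 overlapped a tested fragment. Rps2-ps2 had 96.9% ± 0.556 and Rps13-ps6 91.8% ± 3.55, while the 2 fragments in Rpl13-ps6 had 33.4% ± 14.7 and 27.9% ± 11.1 in VEH (SD, n = 12 each). Apart from Rpl13-ps6, these copies had VEH means above 90%, whereas the start fragments of the coding genes were under 20%. The Rpl13-ps6 fragments were of 41 bp and, abutting it on the right, of 55 bp, so both were of the short or abutting kind described above. The Rps2-ps2 fragment (36 bp) and the Rps10-ps1 fragment were short as well. What part the read length had in these levels was not tested. Away from every protein-coding start, fragments of the coding genes had medians of 61.5% (cytosolic) and 73.3% (mitochondrial), against 64.0% over the table. Position and kind of gene were not separated here.

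Other genes of ribosome assembly and translation were taken from lists. Of 71 tested fragments of 13 ribosome assembly genes, 5 were at an unadjusted p under 0.05, all lower in DDT (7.04%). Of 67 fragments of 10 genes of cytosolic translation, 3 were, all lower (4.48%), and of 58 fragments of 8 genes of mitochondrial translation, 3 were, 1 higher and 2 lower (5.17%). Over the whole table the share was 4.18%, with 252 fragments higher and 593 lower, so lower levels prevailed there too. None passed the adjustment in the F test with Benjamini-Hochberg adjustment, and start fragments had VEH medians of 4.46%, 4.93% and 3.51%. The smallest p of each list were those of Nmd3, the export adapter of the large subunit, with 4.34% ± 1.09 in VEH and 2.53% ± 1.13 in DDT and 12 of 12 DDT libraries under the VEH median (p = 0.000600, permutation test), of Eif4e2, a cap-binding protein, with 2.93% ± 0.358 and 2.21% ± 0.903 (p = 0.00716, permutation test), and of Mars2, the mitochondrial methionine tRNA synthetase, with 1.46% ± 1.59 and 0.386% ± 0.666 (p = 0.0383, permutation test; SD, n = 12 each). At Nmd3 the difference was -1.81 percentage points and -1.58 without DDT replicate 4, and its adjusted p was 0.869. Without that library the difference was -0.522 at Eif4e2 and -1.03 at Mars2.

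The promoters of both classes were rich in CpG. RefSeq holds promoters, 250 bases before to 50 after the start in GRCm38.p6, for 9 cytosolic genes (10 promoters) and 12 mitochondrial genes, and these had a median of 27.0 and 23.0 CpG sites, with ranges of 21 to 33 and 7 to 31, against 7.0 over 32851 promoters. All 10 cytosolic and 9 of the 12 mitochondrial promoters held CCGG, the MspI site, as did 52.8% of all. On both strands, GGGCGG, the box bound by SP1, was in 8 of 10 cytosolic and 4 of 12 mitochondrial promoters and in 35.7% of all. CCGGAAGT, a core of ETS factors such as GABP that holds an MspI site, was in Rpl31, Rpl35 and Mrps26 and in 3.89% of all. GCATGCGC of NRF1 was in Rpl37a and Mrpl9 (2.71% of all), AAGATGGC of YY1 in Rps27 alone (2.75%) and TATAAA in Rpl22l1 alone (13.6%). A match describes letters and not binding.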

How the data were processed

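The authors trimmed 50 bp single-end RRBS reads with Scythe and Sickle, aligned them to GRCm38 with Bismark 0.15.0 and Bowtie 2, and deposited raw counts of CpG calls, methylated or not, for each MspI fragment and library, without normalization. Per the labels, FastQC checked read quality. Their table also names a gene, a genic region and an island relation for each fragment. It was analysed as given here, for chromosomes 1 and 2 and chromosome 3 up to position 136670346. The members and the gene lists were chosen with earlier results of these data known.

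Levels came from the deposited counts. The 20225 fragments that passed the coverage filter were tested with an F test on levels and Benjamini-Hochberg adjustment at 0.05. The study's methods name an ANOVA F test with this adjustment too, beside a differential methylation package that was not used here. Single fragments were compared by a two-sided permutation test, with 100000 resamples or exactly where a group had under 10 libraries. P-values measure the spread between litter pools. Intervals are exact (Clopper-Pearson), and the limit for a level of 0 is 3 calls over all calls. Both treat calls as independent, although calls on the same read are linked. Gene positions came from GENCODE M21, where all 27 member names were matched (Rps3a as Rps3a1), and sequences from RefSeq GRCm38.p6.

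The alternatives were limma on log2 of the ratio of methylated to unmethylated calls with a pseudocount of 1, quasi-binomial regression, minimums of 5 and 20 calls, only fragments covered in all 24 libraries, a term for depth, a replicate block, start windows of 500 and 2000 bp, 1 value per gene, and leaving out each library. Omitting DDT replicates 4 and 12 together, and keeping fragments over 50 bp with none of 50 bp or shorter abutting on the left, were added after seeing the data. DDT replicates 4 and 12 had the largest SD around the fragment medians over all tested fragments. Named fragments are those at an unadjusted p under 0.05, the smallest p, highest start and lowest start of each subunit class, the start fragment with the most VEH calls of each gene, the 3 largest differences and VEH SDs, and the smallest p of each other list. Other fragments given with values (Mrps2 at 216 bp, both Rps3a fragments at the Lrba start, the Mrps28 pair, Mrps5, Mrps9, Mrps26 at 466 bp and further start fragments) were chosen after their values were seen. Sequences are not printed for 3 fragments that overlap a UTR. The tests were also run on simulated calls with shifts far larger than most differences here, the spread of VEH and no aberrant library. That run does not show how the tests perform on small differences or beside DDT replicate 4. Python 3.11.15, NumPy 2.4.6, pandas 2.3.3, SciPy 1.17.1, matplotlib 3.10.9, R 4.3.3 and limma 3.58.1 were used.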

Additional observations from a re-analysis of the deposited data

Results flagged for a closer look

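In groups of 4 to 10 libraries, the highest or lowest library of 4 of the 12 groups tested among the named fragments lay farther from the others than Dixon's 95% limit. Chance gives about 1 in 20 where values are normally distributed. The flagged groups hold many levels at 0%, so that rate cannot be set against their number. At Rpl7, 994 bp upstream, DDT replicate 4 was at 100% and the next DDT library at 10% (n = 8). In the Rpl7 fragment 469 bp upstream, the highest of 8 DDT libraries was at 4.92%. In the Rpl22l1 fragment at 106 bp, the highest VEH library was at 5.56% (n = 9) and the highest DDT library at 6.12% (n = 8), while most others were at 0%, with as few as 10 calls per library.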

How the results depend on the processing

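No ribosomal protein gene fragment passed the adjusted threshold in the F test or in any alternative run (0 to 0 with 1 library left out). The count at an unadjusted p under 0.05, 11 of 137, was 5 with limma, 4 of 72 with levels in all 24 libraries, 6 of 74 over longer fragments, 11 with quasi-binomial regression, 10 and 8 at minimums of 5 and 20 calls, 9 with the depth term and 8 of 129 without DDT replicates 4 and 12. With 1 library left out it was 5 to 11. It was 5 without VEH replicates 1 or 6 or DDT replicate 8, 6 without VEH replicates 7 or 9 or DDT replicate 6, and 7 without VEH replicates 4, 8 or 12 or DDT replicates 5, 10, 11 or 12, each taken singly. The cause of these moves was not tested. The replicate block gave 6 of 137 and changed no adjusted call. The numbers do not pair the libraries: over 10399 fragments, deviations of same-numbered VEH and DDT libraries correlated at -0.180 to 0.199, over 0.1 in 3 of 12 pairs, and 1 library correlated best with its own number. The median VEH start level was 6.18% over cytosolic fragments with levels in all libraries, and for mitochondrial fragments 6.05% with 1 value per gene and 5.52% over longer ones. Away from starts the cytosolic median was 70.2% with 1 value per gene, 6.62% over 9 fragments with levels in all libraries and 70.6% over longer ones, and the mitochondrial one was 62.4% and 76.7% with 1 value per gene and over longer ones. Of 481 values of 16 single fragments under the alternatives, 478 kept their direction. The exceptions were Mrps2 at 216 bp (-0.433 to 7.28 with 1 library left out, the lowest without DDT replicate 4, and -0.808 without DDT replicates 4 and 12) and the Lrba fragment named for Rps3a (-0.182 to 8.17, the lowest without DDT replicate 4). These 16 fragments were chosen from the same data for a small p, a large difference or their values. Most alternatives omit only 1 library, so a kept direction says little. The Rpl31 fragment at 422 bp, whose difference changed sign without DDT replicate 4, is not among them. With 1 library left out, p stayed under 0.05 (F test) in 10 of 24 runs at Rpl37a and in 24 of 24 at Rpl12-ps1 and at Rpl31, 584 bp. Of the other alternatives, 6 of 7 at Rpl12-ps1 and 5 of 6 at Rpl31, 584 bp, kept it there. With limma, p was 0.00663 at Rpl31, 584 bp, 0.0111 to 0.0423 at the Rpl7 fragments and 0.0288 at Rps3a. It was 0.0679 at Rpl35, 0.0826 at Rpl12-ps1, 0.0911 at Rpl37a and 0.197 at Rpl31, 86 bp. Quasi-binomial regression gave 0.141 at Rpl7, 410 bp, 0.0830 at Rpl31, 86 bp, and 0.0567 at Rps3a. A level that rests on 10 calls moves by 10 percentage points with 1 call, which limits shallow fragments.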
